A study of Mus musculus with 2 samples.

Results

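The replication-dependent histone genes were examined in nuclear RNA of stimulated mouse macrophages. Members were all genes whose symbol begins Hist1h, Hist2h, Hist3h or Hist4h and that have a protein-coding transcript in the deposited transcript tables. That gave 67 genes of 55536 named genes, none chosen by its level. By protein they comprised 6 genes for the linker histone H1, 18 for H2A, 18 for H2B, 12 for H3 and 13 for H4. By position 54 lay in the Hist1 cluster on chromosome 13 and 10 in the Hist2 cluster on chromosome 3. The Hist3 cluster on chromosome 11 held 2, and Hist4h4 on chromosome 6 stood alone. Coordinates are those of mm10 with the GENCODE M21 annotation.

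The study sequenced total RNA after removal of ribosomal RNA, in 2 libraries that are biological replicates 1 and 2 of 1 group. The cells were macrophages grown from bone marrow of C57BL/6J mice, with no transgene or deletion named, given Lipid A (the Tlr4-binding part of lipopolysaccharide) at 100 ng/ml for 120 min. RNA came from the nucleoplasmic fraction, which 1 label field calls only nucleus, and the same donor entry is named for both libraries. RNA input was 1 µg for replicate 1 and 500 ng for replicate 2, so input and replicate cannot be told apart. With 1 group no untreated cells enter, no level is an induction, and no test between conditions exists.

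Histones package DNA, with H2A, H2B, H3 and H4 forming the nucleosome core and H1 binding the linker DNA. Replication-dependent histone genes are transcribed chiefly in S phase, when newly copied DNA needs new nucleosomes. Their mRNAs are unusual in ending not in a poly(A) tail but just past a short stem-loop, which Slbp binds and where U7 snRNA directs the cut. Cells that do not divide draw instead on variant histones, such as H3.3, whose genes carry introns and give polyadenylated mRNA. Some replication-dependent genes also give polyadenylated RNA in resting or differentiated cells. Since the libraries were made by depleting ribosomal RNA, RNA without a poly(A) tail could enter them.

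The stem-loop was searched for in each gene's leading transcript model, the one with most counts, because it shows where the mature mRNA should end. The search asked for 16 bases that open with GG, pair perfectly over a 6-base stem and carry a 4-base loop opening with TT. A match was found in 43 of 67 models. The 43 matches took 6 forms, each given here from the member with the highest mean count, in DNA letters 5′ to 3′ with the stem-loop in capitals and 5 flanking bases on each side.
Hist3h2a: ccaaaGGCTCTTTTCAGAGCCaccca
Hist1h4d: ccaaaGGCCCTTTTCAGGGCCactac
Hist1h3e: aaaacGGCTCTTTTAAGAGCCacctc
Hist2h4: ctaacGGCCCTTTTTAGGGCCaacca
Hist1h4b: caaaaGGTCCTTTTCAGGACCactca
Hist2h2ac: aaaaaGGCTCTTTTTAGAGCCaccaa
The first form stood in 25 members of classes H1, H2A, H2B and H3. The second stood in 7 members, all H4, and the third in 6 members of H1, H2B and H3. The form of Hist2h4 was shared with Hist1h4i, that of Hist1h4b with Hist1h4j, and that of Hist2h2ac was found in that gene alone. None of the 11 H4 members with a match had a form found in another class. In the genome the Hist3h2a stem-loop lies at chr11:58955172-58955187 on the plus strand and that of Hist1h4d at chr13:23581950-23581965 on the plus strand. Each lies in the single exon of its gene.

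Promoters were matched in RefSeq (build GRCm38.p6) for 61 of the 67 members, as 250 bases before and 50 after the start. The 3 printed here, 250 bases upstream each, belong to the member with most counts, to the H4 member that differed most clearly between libraries, and to an H2A gene that faces an H2B gene. Capitals mark the TATA box letters TATAAA, the CCAAT box and the octamer ATTTGCAT, each on either strand.
Hist3h2a: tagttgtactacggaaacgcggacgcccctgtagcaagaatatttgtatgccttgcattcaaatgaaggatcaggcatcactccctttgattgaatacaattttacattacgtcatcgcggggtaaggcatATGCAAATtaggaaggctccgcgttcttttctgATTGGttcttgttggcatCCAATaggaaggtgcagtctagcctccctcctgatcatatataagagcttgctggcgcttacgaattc
Hist1h4d: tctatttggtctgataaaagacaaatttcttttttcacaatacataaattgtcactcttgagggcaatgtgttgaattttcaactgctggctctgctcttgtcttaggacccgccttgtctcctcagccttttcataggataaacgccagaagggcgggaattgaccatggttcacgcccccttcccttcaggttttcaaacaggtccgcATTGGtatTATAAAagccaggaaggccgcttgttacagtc
Hist1h2ac: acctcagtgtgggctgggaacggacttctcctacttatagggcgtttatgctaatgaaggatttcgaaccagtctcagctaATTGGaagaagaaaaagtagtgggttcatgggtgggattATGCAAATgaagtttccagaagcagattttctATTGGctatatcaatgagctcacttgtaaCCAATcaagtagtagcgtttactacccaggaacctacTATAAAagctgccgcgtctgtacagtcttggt
They lie at chr11:58954435-58954684 (plus strand), chr13:23581318-23581567 (plus strand) and chr13:23683960-23684209 (minus strand). CCAAT was present in 52 of 61 member promoters (85.2%), against 37.4% of the 32851 promoters of the same length in the table. It stood in all 49 matched promoters of H1, H2A, H2B and H3 genes and in 3 of 12 of H4 genes, those of Hist1h4a, Hist1h4c and Hist1h4d. TATAAA was present in 35 of 61 (57.4%), against 13.6% of all promoters. The octamer, long known from H2B promoters, was present in 13 of 61 (21.3%), against 1.74% of all. Of those 13, 7 were H2A and 6 were H2B genes, and the promoters of H1, H3 and H4 genes held none. The starts in RefSeq and in M21 differed by more than 50 bases for 10 of the 61. A letter match is a description and not a site shown to be bound.

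The H2A and H2B matches are not independent, since many of these genes lie head to head. In 12 pairs, each of 1 H2A and 1 H2B gene, the starts lay on opposite strands 176 to 306 bases apart, with a median of 259.5. Hist1h2ac and Hist1h2bc form such a pair, 251 bases apart. Hist1h2bc had 34.8 and 74.5 counts in replicates 1 and 2, and Hist1h2ac had 8.17 and 3.11. In TPM, a level per length, Hist1h2bc stood at 2.63 and 3.73 and Hist1h2ac at 0.26 and 0.06. In none of the 12 pairs did both genes reach 1 TPM in both libraries. Over their whole classes only 3 of 18 H2A and 2 of 18 H2B genes did so, so this says little about pairing. In 2 pairs, Hist1h2an with Hist1h2bp and Hist1h2aa with Hist1h2ba, neither gene had a count in the gene table.

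The replication-dependent histone genes took a small share of all counts in both libraries, while their median TPM was not below that of nuclear protein-coding genes. The 67 genes together had 862 estimated counts in replicate 1 and 1355 in replicate 2. That was 0.00600% (95% Wilson interval 0.00561 to 0.00641) of 14374739 counts and 0.00827% (0.00785 to 0.00873) of 16372797 counts. Intervals cover counting error only. Summed TPM was 78.8 and 81.2. The median member had 3.22 and 3.41 counts, and its TPM was 0.50 and 0.45. Nuclear protein-coding genes, 22015 in number, had a median of 0.50 and 0.24 TPM.

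A level of 1 TPM or more in both libraries was reached by 15 of 67 members (22.4%), against 40.4% of nuclear protein-coding genes. Another 6 reached it in replicate 1 only and 5 in replicate 2 only. Of the 15, 8 had under 10 counts in at least 1 library, because short models turn few counts into a high TPM. For 17 members in replicate 1, 3 counts already amounted to 1 TPM or more, which held for 1 member in replicate 2. A minimum of 10 counts in both libraries was met by 11 members (16.4%), against 48.3% of nuclear protein-coding genes. Counts also grow with length, so the last share reflects short models as well as level.

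No count in either library of the gene table was found for 10 members (14.9%), against 30.9% of nuclear protein-coding genes. They were Hist1h1t, the testis-specific H1 gene, and Hist1h2aa and Hist1h2ba, which encode histones known from the testis. The others were Hist1h2ah, Hist1h2an, Hist1h2ao, Hist1h2bl, Hist1h2bp, Hist2h3c2 and Hist3h2ba. By class they were 1 H1, 4 H2A, 4 H2B and 1 H3 gene, and no H4 gene. A count of 0 allows up to 3 counts, which for Hist3h2ba would be 0.536 TPM in replicate 1 and 0.356 TPM in replicate 2. In the read-based transcript table, a second deposited quantification, 4 of the 10 had a count in replicate 2. These were Hist1h1t with 1, Hist1h2bl with 1.36, Hist1h2bp with 1.11 and Hist3h2ba with 1. At 3 counts or fewer in both libraries of the gene table stood 23 members.

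**Figure D1:**
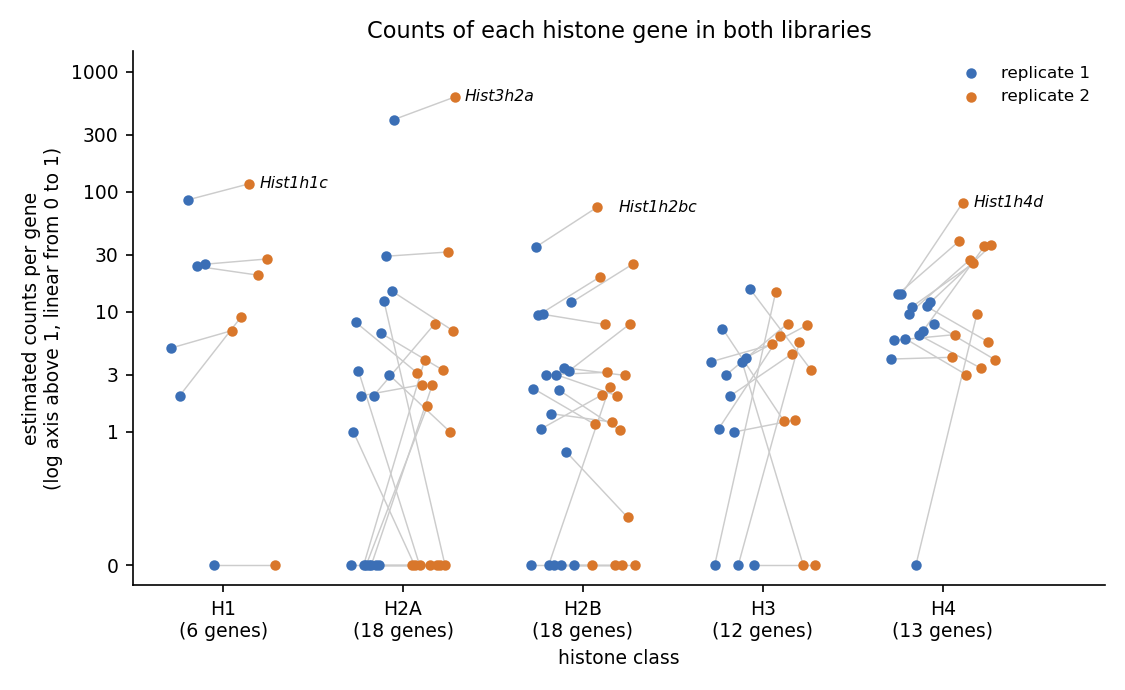
Estimated counts of each of the 67 genes in replicate 1 (blue) and replicate 2 (orange), by histone class, with a grey line joining the 2 values of a gene; the axis is logarithmic above 1 count. Hist3h2a, at 401 and 620 counts, lies above every other gene, and 10 genes are at 0 in both libraries.

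One H2A gene outside the large clusters, Hist3h2a, held 46.5% (43.2 to 49.9) of the members' counts in replicate 1 and 45.8% (43.1 to 48.4) in replicate 2. It had 401 and 620 counts and 14.8 and 15.1 TPM. It was the only member at 100 or more counts in both libraries, and the only one at 5 TPM or more in both. The gene lies at chr11:58954685-58956830 on the plus strand as a single exon of 2146 bases. Its stem-loop, shown first above, begins at base 488 of the model, which runs on for 1643 bases past it. It starts at the same base and on the same strand as Trim17, a ubiquitin ligase gene. The 130 and 116 counts of Trim17 were all assigned to a transcript that does not share the Hist3h2a exon, and none to the one that does. The other Hist3 gene, Hist3h2ba, had 0 counts in the gene table.

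The H1 genes were led by Hist1h1c, with 86 and 117 counts and 4.55 and 4.10 TPM. It encodes a linker histone known to be common in differentiated cells. Hist1h1e followed at 25 and 27.6 counts (1.04 and 0.76 TPM). Hist1h1d had 24 and 20.3 counts, but only 0.24 and 0.13 TPM over its model of 7425 bases. Of the other 3, Hist1h1a and Hist1h1b each had under 10 counts in both libraries.

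Among the remaining H2A genes the highest were Hist2h2aa2, with 29.1 and 31.6 counts (6.64 and 4.77 TPM), and Hist2h2ac, with 15 and 7 (3.51 and 1.09 TPM). Hist2h2aa2 has a near-identical copy, Hist2h2aa1, with 12.4 and 0 counts. No window of 50 bases in either model was unique to it among M21 transcripts. The deposited TPM interval ran from 1.39 to 9.82 for Hist2h2aa2 and from 0.000428 to 6.27 for Hist2h2aa1 in replicate 1. How the counts split between the 2 copies is therefore uncertain. Hist2h2aa1 is also overlapped on the same strand by Gm20634, with 29.5 and 115.8 counts. Both copies are overlapped on the other strand by a gene with counts, Gm20632 (32.0 and 21.5) for Hist2h2aa2 and Gm20633 (34.7 and 35.2) for Hist2h2aa1. Use of strand in counting is not given in the sources used here, so reads of a gene and of its opposite-strand partner cannot be told apart. The 13 H2A genes of the Hist1 cluster together had 23.02 and 24.99 counts, and none reached 1 TPM in both libraries.

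The H2B genes were led by Hist1h2bc, described above, whose leading model has 2 exons and no match to the stem-loop. Hist2h2be had 12 and 25 counts (0.35 and 0.49 TPM), and Hist1h2be had 9.41 and 19.5 (0.30 and 0.42 TPM). Only Hist1h2bc and Hist2h2bb, at 1.37 and 2.26 TPM, reached 1 TPM in both libraries. Hist2h2bb rested on 3.22 and 7.97 counts. None of its 50-base windows was unique, and Gm20628, which overlaps it on the other strand, had 8.29 and 12.8 counts.

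The H3 genes had the fewest counts of the 5 classes, 41.7 in replicate 1 and 58.1 in replicate 2 over 12 genes. Hist2h3c1 had 15.5 and 3.28 counts, Hist1h3b had 0 and 14.8, and Hist2h3b had 4.16 and 7.78. No H3 gene reached 10 counts in both libraries. Hist2h3b, at 1.09 and 1.35 TPM, was the only H3 gene at 1 TPM in both. All windows of 50 bases in Hist2h3c1 and in Hist2h3b are shared with other genes, among them Gm20634 and Gm20628. Gm20634, which overlaps Hist2h3c1 on the same strand, had 29.5 and 115.8 counts.

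By TPM, H4 genes were the most evenly represented class. All 13 had counts in at least 1 library, and 8 of 13 reached 1 TPM in both, against 7 of the 54 other members. Short models reach that level with few counts, and for Hist1h4k 3 counts amounted to 2.06 TPM in replicate 1. A minimum of 10 counts in both libraries was met by 4 of 13 H4, 3 of 6 H1, 2 of 18 H2A, 2 of 18 H2B and 0 of 12 H3 genes. The median H4 gene stood at 1.65 and 1.59 TPM, while the medians of the other classes lay between 0.285 and 0.475 in replicate 1 and between 0.225 and 0.695 in replicate 2. The highest by counts were Hist1h4d with 14 and 81, Hist1h4c with 14.01 and 38.9, and Hist2h4 with 12 and 36. Hist4h4 had 8 and 4 counts (0.21 and 0.07 TPM). H4 genes encode the same protein, and a median of 60.5% of the 50-base windows of their models was unique to the gene. In Hist1h4m, at 6.94 and 35.1 counts, 10.2% were unique, the rest being shared mainly with Hist1h4n.

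By counts, H2A held 56.1% and 50.5% of the members' total, H1 16.5% and 13.4%, H4 12.6% and 20.7%, H2B 9.997% and 11.2%, and H3 4.84% and 4.29%. Without Hist3h2a the order changed. H2A then held 17.9% (14.8 to 21.8) and 8.79% (6.999 to 11.1), and H4 held 23.6% (20.0 to 27.7) and 38.1% (34.7 to 41.7). H1 was the largest class in replicate 1 at 30.8% (26.8 to 35.2), and H4 the largest in replicate 2. By TPM over all members H2A and H4 lay close, with 40.9% and 30.5% in replicate 1 and 32.2% and 38.7% in replicate 2. The Hist1 cluster held 40.2% and 45.1% of counts, and 75.2% and 83.2% without Hist3h2a.

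**Figure D2:**
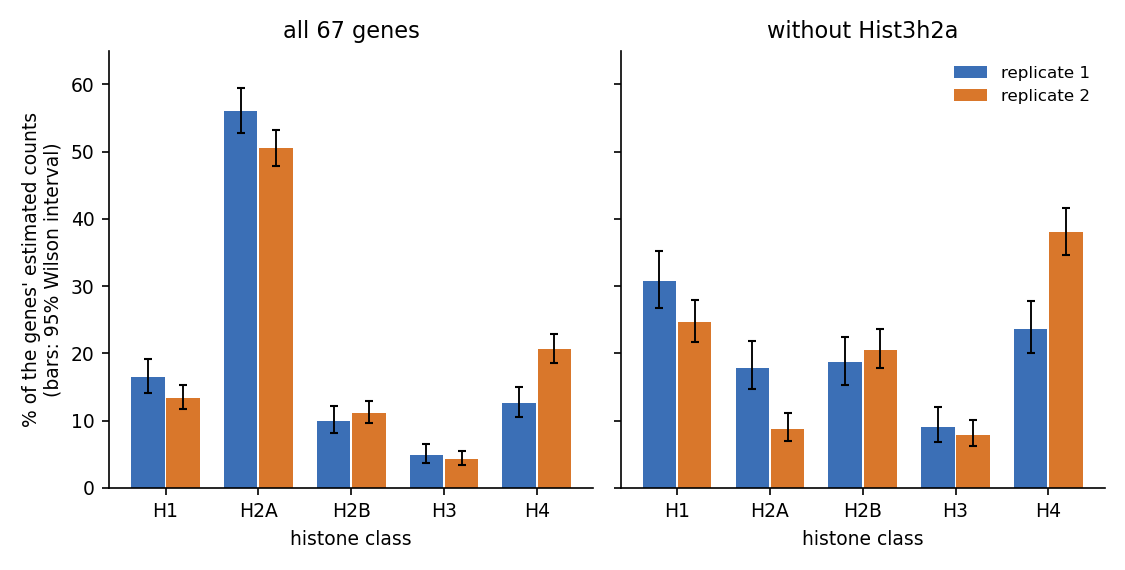
Share of the members' estimated counts in each histone class, for all 67 genes (left) and without Hist3h2a (right), in replicate 1 (blue) and replicate 2 (orange); bars show the 95% Wilson interval, which covers counting error only. Without Hist3h2a the H2A share falls from 56.1% to 17.9% in replicate 1 and the H4 share is larger in replicate 2.

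H4 genes had the highest ratio of counts between the libraries of the 5 classes. H4 counts were 109 and 280, a ratio of 2.57, while the ratios of the other classes ran from 1.27 for H1 to 1.75 for H2B. Without Hist3h2a the H2A counts were 82.5 and 64.6, a ratio of 0.78. In the read-based transcript table H4 counts were 214 and 493. H2B, at 466 and 428, was the only class with fewer counts in replicate 2 there. Differences for single genes were taken as log2((TPM + 1) of replicate 2 over replicate 1), minus -0.58, the median over the 12655 genes whose mean TPM was at least 1. Of the 20 members at that level, 14 lay above 0, with a median of 0.54 and a range of -1.17 to 2.03. The median of nuclear protein-coding genes was 0.06. Because the pseudocount pulls the ratio of a low gene towards 0 before -0.58 is subtracted, a gene near 0 TPM is placed near 0.58 by construction. With a pseudocount of 0.1 the median of the 20 members was 0.63. A difference of 1 or more was seen in 6 of the 20 (30%), against 5.46% of nuclear protein-coding genes. These were Hist1h4m, Hist1h4d, Hist1h2ak, Hist1h4h, Hist1h4c and Hist2h2bb, of which 4 are H4 genes. Unique 50-base windows made up 89.8% of Hist1h4d, 80.4% of Hist1h4c, 54.2% of Hist1h4h, 43.0% of Hist1h2ak, 10.2% of Hist1h4m and 0% of Hist2h2bb. Hist1h4m shared sequence mainly with Hist1h4n, which lay below 0. The part that the split of shared reads has in these differences was not tested. H4 genes made up 9 of the 20, and 3 of them lay below 0. These were Hist1h4f at -0.34 (6 and 3 counts), Hist1h4k at -0.47 (6.40 and 3.41) and Hist1h4n at -0.48 (11.1 and 5.65). A difference of -1 or less was seen in 1 (5%), Hist2h2aa1, against 1.73%. It had 12.4 and 0 counts, and how counts split between it and its copy Hist2h2aa2 is uncertain. Gm20634, which overlaps Hist2h2aa1 on the same strand, had 29.5 and 115.8 counts, and the split of reads with that gene was not tested. Low counts widen such differences, and no test could be made of 1 library against 1.

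The deposited TPM intervals of the 2 libraries overlapped for 65 of 67 members. The share over all genes was not computed. At a median of 3.22 and 3.41 counts the intervals are wide, so overlap is no measure of agreement. The intervals did not overlap for Hist1h4d, at 0.566 to 1.63 in replicate 1 and 3.12 to 4.83 in replicate 2. Nor did they for Hist1h3b, with 0 counts in replicate 1 and 1.73 TPM in replicate 2. Both were higher in replicate 2. Mitochondrial genes took 0.424% of counts in replicate 1 and 8.70% in replicate 2. The 8 stromal markers, led by Col1a1 with 1845 and 8 counts, summed to 5652 and 55 counts. The 8 macrophage markers, led by Lyz2 with 6233 and 30717, summed to 25557 and 64123. Markers of erythroid cells, B cells and neutrophils, 4 genes each, summed to 22.6 and 19.8, 35 and 11, and 14 and 39 counts in that order. Their part in the difference between the libraries was not tested, and neither was that of RNA input.

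Counts lay mostly on models that extend far past the stem-loop. Of the 67 leading models, 22 ran on more than 100 bases past it, 21 ended within 100 bases, 12 held only the coding part and 12 had further sequence but no match. The 22 that ran on held 76.0% and 76.3% of counts, and 55.1% and 56.2% without Hist3h2a. The 21 that ended near the stem-loop held 13.9% and 11.5%, and the 12 coding-only models 2.15% and 2.13%. Long models collect more counts at equal level. Per length the order was different, with a median TPM of 0.32 and 0.33 for models that ran on and 0.69 and 0.58 for models that ended near the stem-loop. Besides Hist3h2a, the models of Hist1h1c and Hist1h4d ran on for 840 and 770 bases and that of Hist2h4 for 1257. The tables give no position of reads within a model, so reads before and past the stem-loop were not separated. The 4 groups of models were formed after the counts had been seen.

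**Figure D3:**
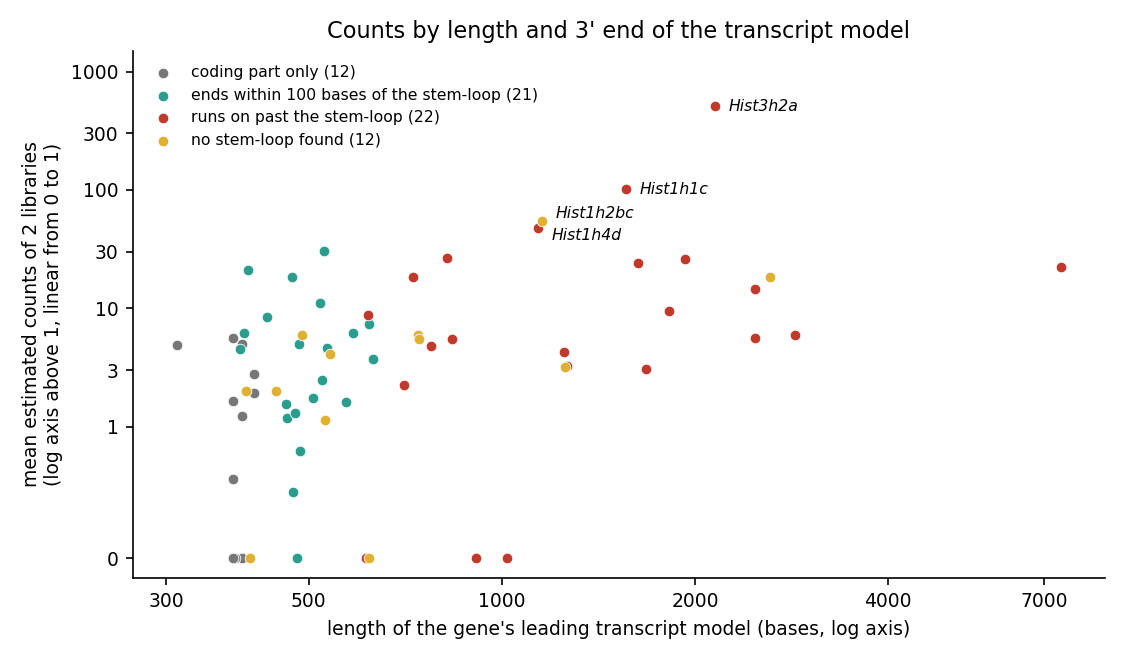
Mean estimated counts of the 2 libraries against the length of each gene's leading transcript model, coloured by how the model ends; both axes are logarithmic (counts above 1). The highest gene, Hist3h2a, has a model of 2146 bases that runs on past the stem-loop, and the 12 coding-only models, 312 to 411 bases long, all lie under 10 counts.

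Over all 75 transcript models of the members, 23 models of 18 genes were 1000 bases or longer. They held 77.1% and 77.0% of counts, and 57.2% and 57.5% without Hist3h2a. Models with more than 1 exon numbered 8 and held 5.42% and 6.90%. Of the genes, 62 had a single model.

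The second deposited quantification, made from the read files, put more counts on these genes. Its members' sum was 1582 and 2420 counts, which was 1.83 and 1.79 times the gene table, while the ratio over all entries was 1.46 and 1.68. It was higher than the gene table in both libraries for 40 of 67 members, and 4 times or more for 4. The shares of all genes that were higher there were not computed, so neither count is shown to be particular to these genes. Hist2h2be had 256 and 111 counts there against 12 and 25, Hist1h1d 154 and 205 against 24 and 20.3, Hist1h2bq 93.9 and 52.3 against 3.43 and 2.96, and Hist4h4 76.1 and 103 against 8 and 4. For Hist3h2a the values were 465 and 903, and for Hist1h1c 92 and 149. Only 8 members reached 1 TPM in both libraries in that table, and the share over all genes in it was not computed. The H2B share rose with Hist2h2be and Hist1h2bq, to a mean of 23.6% of the members' counts against 10.6% in the gene table.

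**Figure D4:**
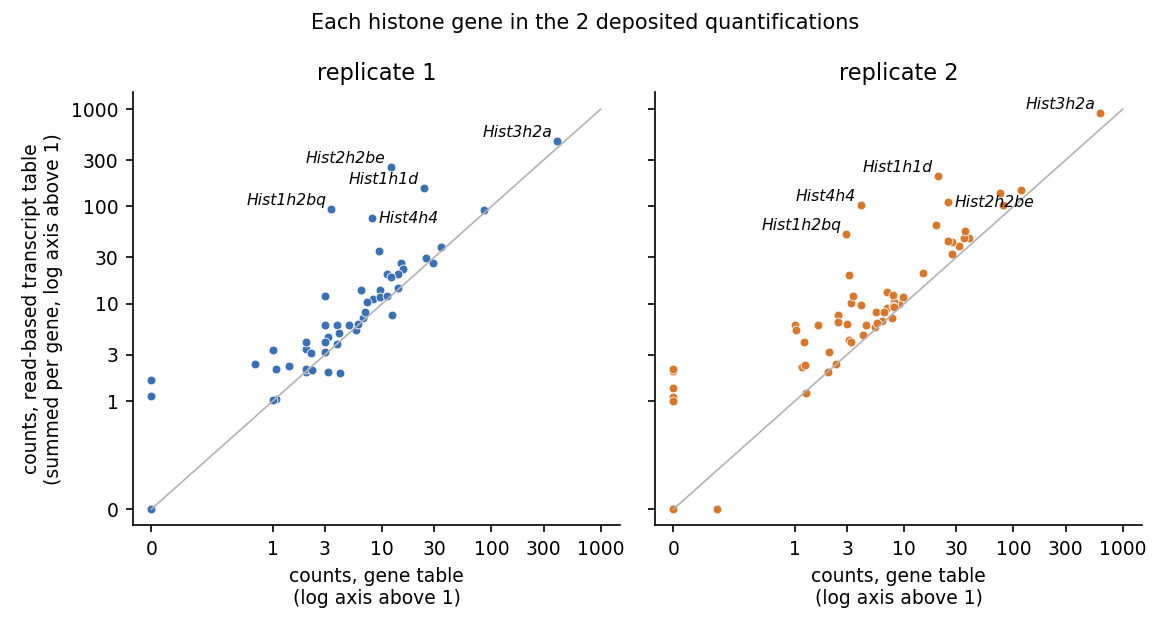
Estimated counts of each gene in the gene table (horizontal) against the read-based transcript table summed per gene (vertical), in replicate 1 (left) and replicate 2 (right); the grey line marks equal counts and the axes are logarithmic above 1. Hist2h2be, Hist1h1d, Hist1h2bq and Hist4h4 lie 4 times or more above the line's value in both libraries.

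Sequence shared between genes limits many of these values. In 34 of 67 leading models under 50% of the 50-base windows were unique to the gene, and in 7 none was. The median was 27.0% for H2A, 38.0% for H3, 52.5% for H2B, 60.5% for H4 and 98.9% for H1 genes. In Hist3h2a 68.5% were unique, with Trim17 the main sharer, and in Hist1h1c 91.5%. For the 10 members without a count in the gene table, the unique share ran from 6.50% in Hist1h2ao to 100% in Hist1h1t. A predicted miRNA gene on the other strand overlapped 17 members, and 5 members lay opposite a gene that itself had a count.

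Variant histone genes of 2 classes stood well above the replication-dependent ones per length. H3f3a and H3f3b, which encode H3.3, summed to 226 and 172 TPM, against 5.42 and 7.09 TPM for the 12 H3 members, a ratio of 41.7 and 24.3. H3f3b alone had 213 and 142 TPM. The 6 H2A variant genes, led by H2afy (macroH2A, 151 and 93.0 TPM) and H2afz (H2A.Z, 42.1 and 18.9 TPM), summed to 200.4 and 118 TPM against 32.3 and 26.2, a ratio of 6.21 and 4.52. In the H1 class the order was the other way. H1f0, the H1 gene of non-dividing cells, had 2.28 and 1.43 TPM and H1fx was listed at 0, against 6.78 and 6.43 TPM for the 6 H1 members, a ratio of 0.336 and 0.222. Of all 13 variant genes, 8 reached 1 TPM in both libraries, against 40.4% of nuclear protein-coding genes.

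**Figure D5:**
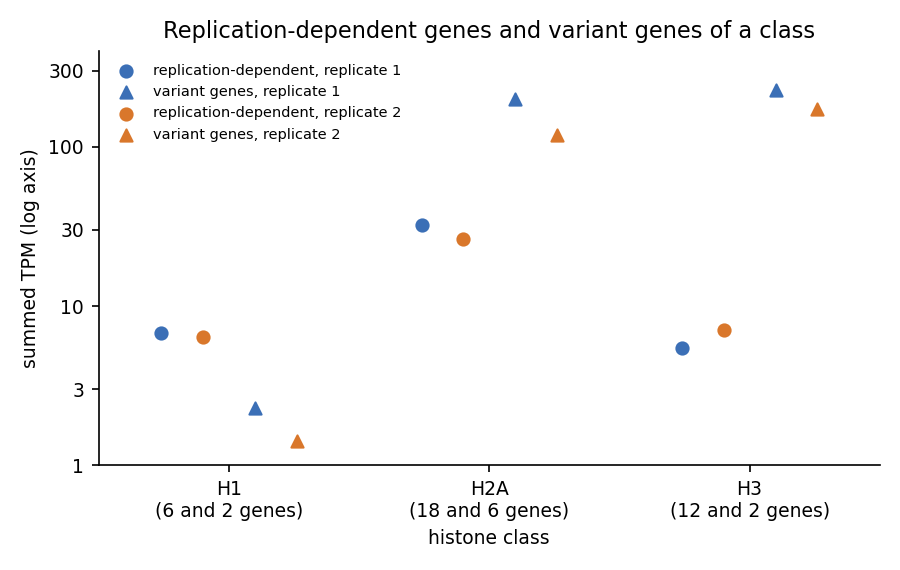
Summed TPM (logarithmic axis) of the replication-dependent genes (circles) and of the variant genes (triangles) of classes H1, H2A and H3, in replicate 1 (blue) and replicate 2 (orange). The variant genes lie above the replication-dependent ones in H2A and H3, at 226 against 5.42 TPM for H3 in replicate 1, and below them in H1.

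Genes that make, cut and handle histone RNA and protein were mostly present. Of 23 matched genes for histone gene transcription and 3′ end processing, 19 reached 1 TPM in both libraries, against 40.4% of nuclear protein-coding genes. Their median was 6.78 and 4.52 TPM. Slbp, the stem-loop binding protein, had 13.3 and 5.28 TPM, and Npat, the coactivator of the histone gene clusters, had 7.11 and 3.22. Hinfp, a factor of H4 gene promoters, had 32.4 and 13.1 TPM, Srrt 83.6 and 52.3, and Fip1l1 29.6 and 19.5. The U7 snRNA gene Rnu7 was listed at 0 in both. Of 13 histone chaperone and import genes, 10 reached 1 TPM in both, against the same 40.4%. Daxx stood at 263 and 182 TPM, Atrx at 50.9 and 28.9 and Asf1a at 18.95 and 13.1. Asf1b, the chaperone form tied to proliferation, was lowest at 0.14 and 0.31 TPM, from 3 and 1 counts.

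Genes of S phase and mitosis were present at modest levels. Of 30, 15 reached 1 TPM in both libraries, a share near the 40.4% of nuclear protein-coding genes. The median was 1.28 and 1.01 TPM. The highest were Pcna, the sliding clamp of DNA polymerase, at 31.6 and 28.5 TPM, Mki67 at 34.9 and 21.1, and Tk1 at 17.3 and 5.56. Summed counts were 7006 and 6706, of which Mki67, a long gene, held 4831 and 4193. Bulk RNA cannot tell fewer cells in S phase from less RNA per cell. All 8 macrophage markers reached 1 TPM in both libraries, with a median of 75.2 and 113 TPM.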

How the data were processed

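The 67 members and all gene lists were chosen with earlier results of these data known. Per the labels' accompanying notes, the authors used mm10 and annotation M21; aligner, counting tools and strand setting: not given in the sources used here. From a transcriptome alignment the authors deposited expected counts, estimated values that can be fractional, per the file headers; a further deposited transcript table, made from the read files, holds estimated counts and TPM. The deposited TPM is abundance per effective length, scaled to one total per table, per the file headers. FPKM, also deposited by the authors, was used in 1 alternative. The level of the deposited TPM intervals is unknown. Entries without a gene name took 1.41% and 0.245% of counts and were kept out of lists.

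The 95% Wilson intervals of shares cover counting error only: without molecular identifiers, reads are not independent molecules. For a count of 0 up to 3 counts are allowed. Nothing says whether the replicates came from separate animals. No p-value was computed, since there is 1 group of 2 libraries. Log ratios used a pseudocount of 1 TPM, and the median subtracted afterwards places genes near 0 TPM near 0.58. Named members are the 3 highest of each class by mean counts, all of Hist3 and Hist4, those at 0 in both libraries, and those with 100 or more counts in both. Other members were named after their values were seen, as were the shares without Hist3h2a. Companion lists other than cell type markers name the 3 highest and the lowest gene, of which 1 is not reported here, and the stromal and macrophage marker lists name the highest; Slbp and Npat were named for their role. Stem-loops, shared windows and model ends come from the M21 transcripts, and promoters from RefSeq on GRCm38.p6. The shared-window search took both strands. Analysis used Python 3.11.15, pandas 2.3.3, numpy 2.4.6, matplotlib 3.10.9 and, for scaling alternatives on rounded expected counts, edgeR 4.0.16 and DESeq2 1.42.0 in R 4.3.3. Of the summaries only the log2 difference between libraries was tested on simulated data. That test used genes at a higher TPM than any member, so it does not cover genes with few counts. Protein sequences were not analysed here.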

Additional observations from a re-analysis of the deposited data

How the results depend on the processing

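Means of the 2 libraries were recomputed under each alternative. With the read-based table, members at 1 TPM or more in both went from 15 to 8, the class shares to 17.4% for H1, 38.7% for H2A, 23.6% for H2B and 3.40% for H3, the median log2 difference from 0.54 to 0.67, and the share of counts in transcripts of 1000 bases or more from 77.0% to 82.8%. At 5 TPM only 1 member remained. With TPM in place of counts the shares were 8.26% for H1, 36.6% for H2A, 12.7% for H2B, 7.804% for H3, 34.6% for H4 and 62.9% for Hist1. Without Hist3h2a, an alternative chosen after seeing the data, they were 27.7%, 13.3%, 19.6%, 8.47%, 30.9% and 79.2% in the same order. The members' share of all counts was then 0.00385%, and it was 0.0103% of nuclear protein-coding counts. Transcripts of 700 bases or more held 82.9% and those of 1500 or more 67.5%, and those of 1000 or more held 57.3% without Hist3h2a. Without a filter on low values the median log2 difference was 0.25. The count of members changed by less than 1.5 times with FPKM or a 10-count minimum. The median log2 difference was 0.61 with edgeR scaling, 0.58 with DESeq2 size factors and 0.63 with a pseudocount of 0.1. Leaving out either library leaves the value of the other, so with 2 libraries this is no check of stability; the H4 share, for example, is then 20.7% or 12.6%. With a median of about 3 counts a gene, differences between single members were mostly not detectable at this depth. No paired analysis was possible because there is only 1 group.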
